A study of Rattus norvegicus with 10 samples.

Results

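The translation initiation factors form a set of 45 genes among the 15154 that could be named on an Agilent array for the rat, and they were measured with 57 of its 30367 probes. A probe belongs to the set if the RefSeq transcript printed beside it on the array, matched without its version to a rat gene table, has a symbol that starts with Eif and a digit; Eif2ak3 was left out by this rule. RNA came from testes of pups on postnatal day 6, and each of 10 arrays held RNA labelled with Cy3 from the offspring of 1 sire code. The sires were Brown Norway males mated to Sprague Dawley females, and they had received saline or BEP for 9 weeks, then a recovery of 9 weeks. BEP is the usual short name of the chemotherapy of bleomycin, etoposide and cisplatin, although the labels do not spell it out. Sire codes with a C were on 5 arrays and codes with a T on 5; C is read here as saline and T as BEP, which no label states. The sources used here do not say how many pups or litters stand behind an array, so whether the arrays are independent is not known. The p-values set the difference between T and C against the spread between arrays, and treat the arrays as independent. The number of arrays limits the precision. The question was whether treatment of the father left a difference in the testes of his offspring.

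Initiation factors bring the small ribosomal subunit and the initiator tRNA to a messenger RNA. The eIF4 proteins bind the cap and unwind the leader, eIF3 serves as a scaffold on the small subunit, eIF1 and eIF1A govern the search for the start codon, and eIF2 carries the initiator tRNA as a complex with GTP. The guanine nucleotide exchange factor eIF2B recharges eIF2, and kinases that phosphorylate the alpha subunit of eIF2 block that step under stress, which lowers general translation while favouring messages such as Atf4. In the testis, control of translation is best known from later germ cells, which store messages before they use them; the first days after birth come before meiosis, when the tubules hold Sertoli cells and early germ cells.

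Levels are given as log2 of the processed signal minus the array's 75th percentile, so that 0 is the 75th percentile of that array, and levels of different probes are not set against each other. All 57 probes were well above background on all 10 arrays, and none had a missing value. The 75th percentile of the signal lay between 1525 and 2686 units, 70.4% to 74.8% of all probes passed the background test of a given array, and pairs of arrays correlated at 0.99 to 0.997. Of 7 Sertoli cell genes listed, 6 could be named on the array, and these 6 were well above background on all 10 arrays. So were 8 of 8 germ cell genes, 5 of 5 macrophage genes and the 6 erythroid genes named on the array. Most probes pass this background test, so it does not by itself identify the tissue. The arrays came from 2 slides, slide 1 with C replicates 1 to 3 and T replicates 1 and 2, and slide 2 with C replicates 4 and 5 and T replicates 3 to 5. Replicate numbers follow the order of the accessions and pair nothing across the groups.

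No initiation factor passed the test between T and C. With limma over 21891 probes, 0 of the 57 probes had an adjusted p under 0.05 and the smallest was 0.999; the share over all tested probes was 0%. At an unadjusted p under 0.05 stood 1 of 57 probes (Eif2ak4, higher in T), against 3.97% of all tested probes, or 1.59% for those higher and 2.38% for those lower in T. The differences ran from -0.16 for a probe of Eif4g2 to 0.12 for Eif2ak4, with a median of -0.019, where the median of all tested probes was -0.020. Of the 57 probes, 19 were higher and 38 lower in T, while 41.5% of all tested probes were higher. That split moved with the scaling, to 28 higher and 29 lower after quantile normalization and to 25 and 32 with median scaling or in the authors' deposited table.

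The 95% intervals limit the difference in the signal of each probe. They come from the fit without slide and are not adjusted for the number of probes. They are not limits for the RNA of a gene, since 6 of the 11 genes with several probes had probes of opposite sign. The bound of a 95% interval farther from 0 was 0.13 for the best measured probe, Eif3d, and 0.39 for the worst, Eif5a2, which correspond to 1.1-fold and 1.31-fold. Over the 57 probes the median bound was 0.21 or 1.16-fold, against 0.30 or 1.23-fold over all tested probes. The interval lay within 1.2-fold on 44 of 57 probes (77.2%, against 39.4% of all) and within 1.5-fold on 57 of 57 (100%, against 86.8%). The SD over all 10 arrays ran from 0.060 for Eif3d to 0.24 for Eif5a2 with a median of 0.10, where the median of all tested probes was 0.16. Among tested probes of similar signal (the same decile) the median initiation factor probe stood at percentile 38.6 of SD.

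**Figure D1:**
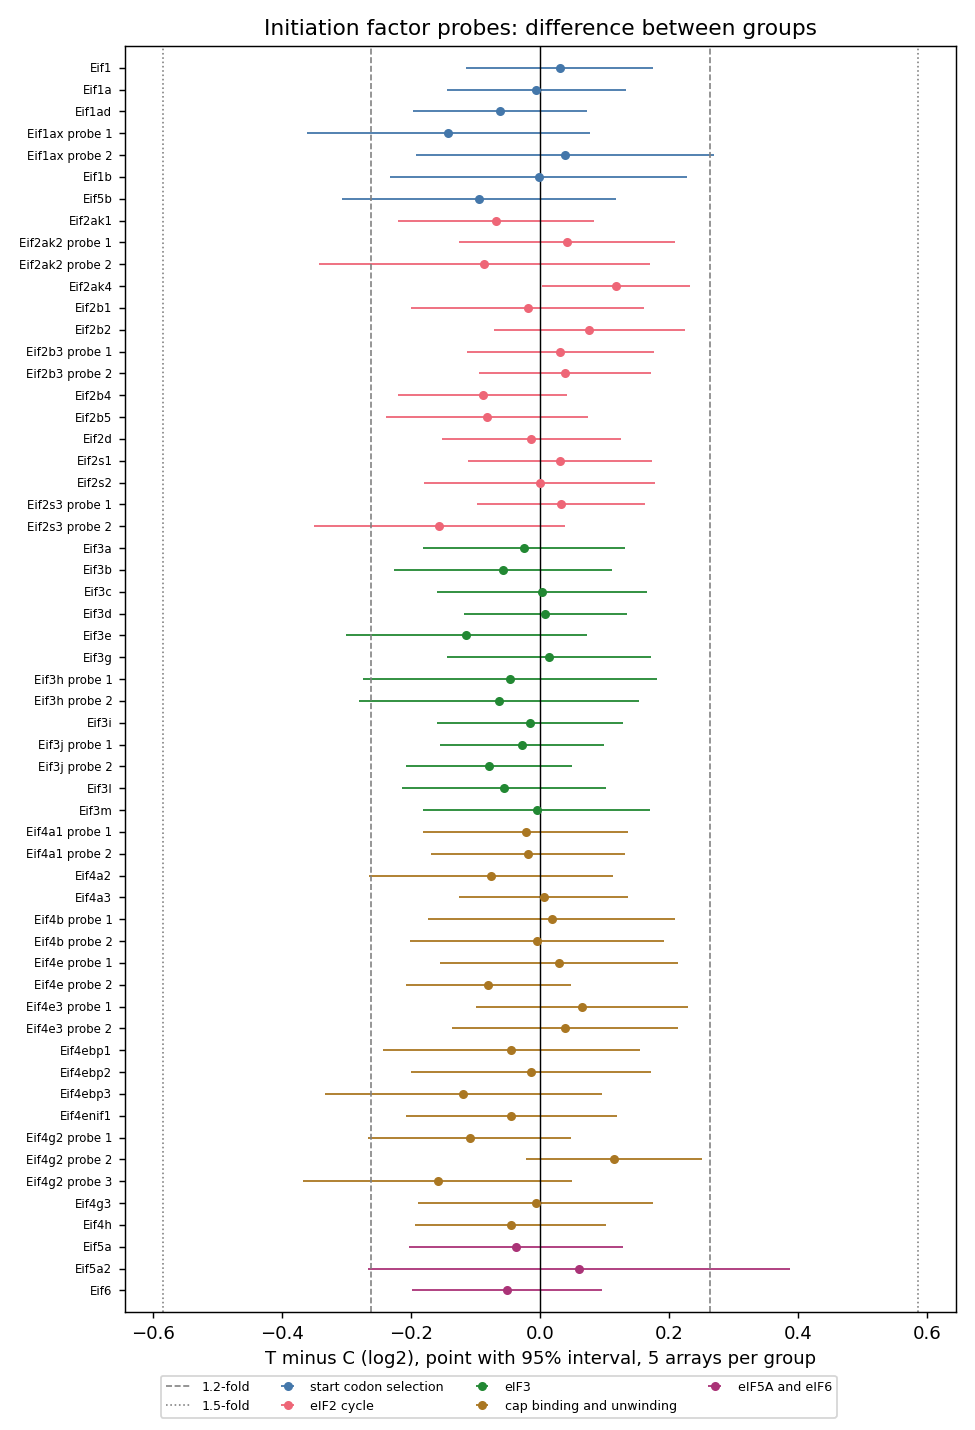
Difference between T and C in log2 units (horizontal axis) for each of the 57 probes (vertical axis), as a point with its 95% interval from 5 arrays per group, coloured by role; where a gene has several probes, probe 1 is the one with the highest signal. Each interval lies inside the dotted lines at 1.5-fold, 44 lie inside the dashed lines at 1.2-fold, and the interval of Eif2ak4 is the one that stays above 0.

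The factors that choose the start codon were represented by 7 probes of 6 genes, of which 2 were higher and 5 lower in T, with a median difference of -0.0062 and a widest bound of 1.28-fold. Eif1, whose product keeps the scanning ribosome from starting at poor codons, read 2.96, 2.81, 2.96, 2.78 and 2.75 in the C arrays and 2.92, 2.91, 2.76, 2.88 and 2.93 in the T arrays. The groups overlapped throughout, and the difference was 0.030 ± 0.066 (± SE of the limma fit here and below). Its close relative Eif1b read 0.16, -0.074, 0.079, -0.29 and -0.29 in the C arrays and 0.030, 0.030, -0.24, -0.053 and -0.19 in the T arrays, a difference of -0.0027 ± 0.10. The C arrays of Eif1b split by slide, as the comparison of slides further on shows. Eif1a and Eif1ax encode forms of eIF1A, the partner of eIF1 in scanning, and Eif1a differed by -0.0062 ± 0.063.

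The probes of Eif1ax went different ways. The brighter one, A_64_P076696, read -0.79, -0.70, -1.14, -0.68 and -0.86 in the C arrays and -0.84, -0.93, -1.08, -1.15 and -0.89 in the T arrays, and it differed by -0.14 ± 0.099; without C replicate 3 that difference was -0.22, at an unadjusted p under 0.05. The dimmer one, A_44_P681642, read -1.15, -1.35, -0.98, -1.25 and -1.04 in the C arrays and -1.33, -1.31, -1.05, -0.92 and -0.98 in the T arrays, a difference of 0.038 ± 0.10. On both probes the groups overlapped across most of their range. Eif1ad (-0.062 ± 0.061) and Eif5b, the GTPase that joins the large subunit (-0.095 ± 0.096), were lower in the T mean, and neither passed the test. Eif5 was not analysed here.

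The eIF2 cycle held the single factor whose groups stood apart. Eif2ak4 encodes GCN2, the eIF2 kinase that senses uncharged tRNA when amino acids run short. Its probe, A_44_P1054501, read -0.26, -0.31, -0.28, -0.27 and -0.20 in the C arrays and -0.15, -0.18, -0.18, -0.16 and -0.053 in the T arrays. Every T array was above every C array, but the gap between the highest C array and the lowest T array was small beside the spread of either group. The means were -0.26 ± 0.039 in C and -0.15 ± 0.054 in T (SD, n = 5), and the difference of 0.12 ± 0.052, a 1.08-fold higher signal, had a 95% interval of 0.0027 to 0.23 and did not pass (limma adjusted p = 0.999). Groups without overlap were found on 1 of 57 initiation factor probes and on 0.722% of all probes with values on every array (0.192% higher and 0.53% lower in T). Within slides the difference was 0.12 on slide 1 and 0.10 on slide 2. The groups overlapped under normexp background correction, with median scaling and in the authors' deposited table, where the differences were 0.12, 0.13 and 0.13.

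**Figure D2:**
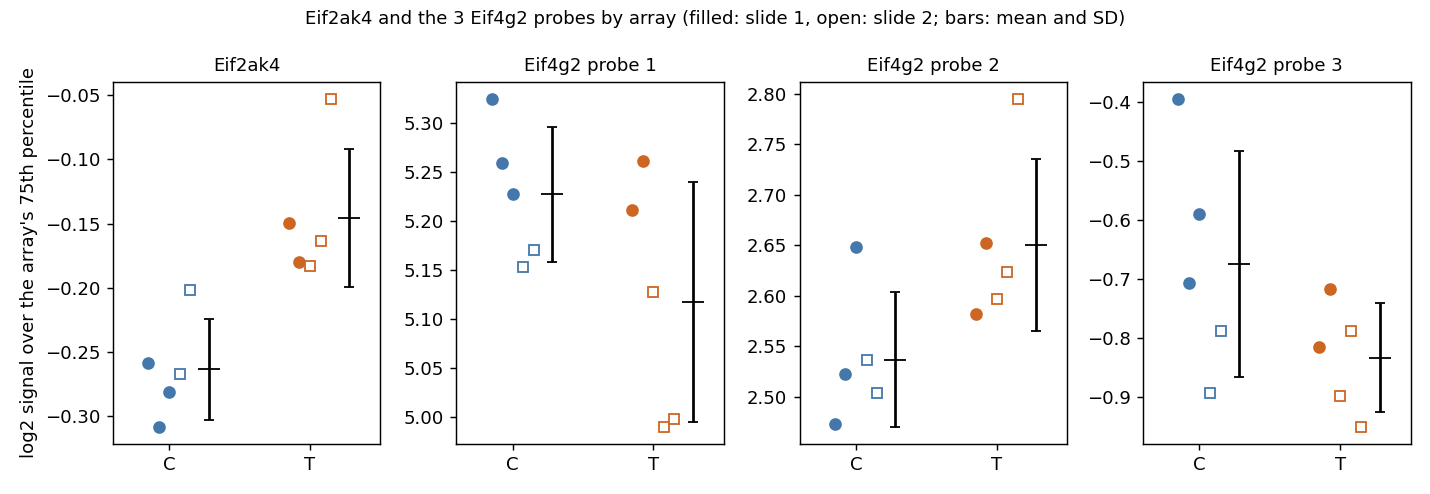
Log2 signal over the array's 75th percentile (vertical axes, which do not start at 0) for Eif2ak4 and the 3 probes of Eif4g2 in the C and T arrays, with slide 1 as filled circles, slide 2 as open squares and bars for the mean and SD of 5 arrays. The T arrays of Eif2ak4 all lie above the C arrays, while probe 2 of Eif4g2 has a higher T mean and probes 1 and 3 a lower one, with overlap on each.

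The other eIF2 kinases showed no such order. Eif2ak1, the kinase that responds to lack of heme, read 2.46, 2.51, 2.48, 2.69 and 2.44 in the C arrays and 2.41, 2.35, 2.47, 2.43 and 2.57 in the T arrays, a difference of -0.068 ± 0.069. Eif2ak2 encodes the kinase PKR, which binds double-stranded RNA, and its brighter probe (0.041) and dimmer probe (-0.086) had opposite signs. C replicate 4 was the highest array for Eif2ak1 and C replicate 5 the lowest for the dimmer Eif2ak2 probe, and the groups overlapped on all 3 probes.

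No subunit of eIF2 itself passed the test. Eif2s1 encodes the alpha subunit, the substrate of those kinases, and it read 2.99, 2.96, 2.90, 3.13 and 3.07 in the C arrays and 3.00, 2.97, 3.08, 3.00 and 3.16 in the T arrays, a difference of 0.030 ± 0.064. Eif2s2, the beta subunit, differed by -0.00056 ± 0.081. Eif2s3, on the X chromosome, encodes the gamma subunit that binds GTP and the tRNA, and its brighter probe A_64_P096231 read 1.94, 2.03, 2.05, 2.09 and 1.99 in the C arrays and 1.97, 2.09, 2.02, 2.01 and 2.17 in the T arrays (0.032 ± 0.059). The dimmer probe A_44_P652670 read -2.16, -1.93, -2.02, -2.15 and -2.28 in the C arrays and -2.09, -2.16, -2.36, -2.29 and -2.42 in the T arrays, a difference of -0.16 ± 0.088. Here T replicates 3 to 5, all on slide 2, gave the 3 lowest values, and the slide block reduced the difference to -0.12. Rodents carry a closely related gene on the Y chromosome, Eif2s3y, which was not analysed here.

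The exchange factor eIF2B was measured through all 5 subunits. Eif2b5, the catalytic subunit, read 0.29, 0.32, 0.051, 0.22 and 0.16 in the C arrays and 0.20, 0.14, 0.21, 0.075 and -0.0090 in the T arrays, a difference of -0.083 ± 0.071. Eif2b4, a regulatory subunit, read -0.68, -0.56, -0.69, -0.67 and -0.55 in the C arrays and -0.64, -0.72, -0.65, -0.77 and -0.81 in the T arrays, a difference of -0.090 ± 0.059. Both were lower in the T mean with overlap of the groups. Eif2b2 (0.076) and both probes of Eif2b3 (0.031 and 0.038) were higher in the T mean, and Eif2b1 (-0.020) and Eif2d (-0.014), which can deliver tRNA to the ribosome without eIF2, were close to 0. In all, 7 of the 15 probes of the eIF2 cycle were higher and 8 lower, with a median of -0.00056 and a widest bound of 1.27-fold.

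The eIF3 complex was represented by 13 probes of 11 genes, whose differences lay between -0.11 and 0.013. Of them 3 were higher and 10 lower in T, the median was -0.028 and the widest bound 1.23-fold. The lowest was Eif3e, known in mice as the viral integration site Int6, which read 0.56, 0.38, 0.49, 0.34 and 0.13 in the C arrays and 0.33, 0.29, 0.15, 0.34 and 0.21 in the T arrays. The groups overlapped, and the difference was -0.11 ± 0.084; it was -0.17 on slide 1 and 0.0018 on slide 2. Leaving out C replicate 5 made it -0.18, at an unadjusted p under 0.05, and leaving out C replicate 1 made it -0.069. Eif3a, the largest subunit, differed by -0.025 ± 0.071, and Eif3b, which together with it forms part of the core, by -0.057 ± 0.076.

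The other eIF3 subunits did not separate the groups either. Eif3c, another core subunit, read 3.91, 3.82, 3.71, 3.79 and 3.59 in the C arrays and 3.83, 3.83, 3.78, 3.61 and 3.78 in the T arrays, a difference of 0.0029 ± 0.074. Eif3i read 4.78, 4.85, 4.75, 4.93 and 4.66 in the C arrays and 4.89, 4.75, 4.76, 4.72 and 4.76 in the T arrays, a difference of -0.015 ± 0.065. Eif3j is loosely attached to the complex; its brighter probe A_64_P000245 read -0.10, 0.039, 0.052, 0.060 and 0.079 in the C arrays and 0.041, -0.086, -0.0027, -0.018 and 0.056 in the T arrays, and the difference was -0.028 ± 0.057. The dimmer probe A_44_P309398, at -0.30, -0.22, -0.34, -0.27 and -0.37 in the C arrays and -0.38, -0.35, -0.46, -0.27 and -0.43 in the T arrays, differed by -0.080 ± 0.058, the same way and with overlap. Eif3d (0.0075), Eif3g (0.013), Eif3l (-0.056) and Eif3m (-0.0056) lay within the same range, and Eif3f and Eif3k were not analysed here.

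Among the factors of cap binding and unwinding, 6 of 19 probes of 13 genes were higher and 13 lower in T, with a median of -0.019 and a widest bound of 1.29-fold. Eif4e encodes the cap-binding protein, and its brighter probe A_64_P070721 read -0.85, -0.90, -0.74, -0.78 and -0.63 in the C arrays and -0.94, -0.84, -0.70, -0.55 and -0.72 in the T arrays, a difference of 0.030 ± 0.083. The dimmer probe A_44_P700084 read -1.14, -1.05, -0.99, -1.20 and -1.05 in the C arrays and -1.20, -1.19, -1.15, -1.20 and -1.11 in the T arrays, a difference of -0.081 ± 0.058. The probes of Eif4e had opposite signs, and neither separated the groups. Eif4e3, a relative that also binds caps, was higher in the T mean on both probes (0.065 and 0.038); the brighter one, A_44_P466595, read -2.72, -2.80, -2.46, -2.70 and -2.72 in the C arrays and -2.72, -2.66, -2.49, -2.57 and -2.62 in the T arrays.

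The repressors that hold Eif4e away from the scaffold did not pass either. Eif4ebp1, which mTOR inactivates by phosphorylation, read 3.73, 3.75, 4.09, 3.64 and 3.60 in the C arrays and 3.75, 3.72, 3.68, 3.66 and 3.77 in the T arrays, a difference of -0.045 ± 0.090. C replicate 3 stood above all other arrays, and without it the difference was 0.037. Eif4ebp3, another of that family, read 0.28, 0.063, -0.078, -0.15 and -0.17 in the C arrays and -0.024, -0.0083, -0.15, -0.29 and -0.19 in the T arrays, a difference of -0.12 ± 0.097. C replicate 1 was its highest array, without which the difference was -0.047, and the groups overlapped. Eif4ebp2 (-0.014 ± 0.084) and Eif4enif1, which carries eIF4E into the nucleus (-0.045 ± 0.074), were nearer to 0.

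None of the helicases and their helpers passed the test. Eif4a1 and Eif4a2 encode the helicase eIF4A. The probes of Eif4a1 read 2.48, 2.55, 2.74, 2.55 and 2.58 in the C arrays and 2.47, 2.63, 2.64, 2.62 and 2.42 in the T arrays on A_64_P051756 and 2.58, 2.32, 2.47, 2.34 and 2.44 in the C arrays and 2.36, 2.35, 2.43, 2.39 and 2.54 in the T arrays on A_64_P057073, with differences of -0.022 ± 0.072 and -0.019 ± 0.068. Eif4a2 read 2.03, 2.38, 2.14, 2.34 and 2.44 in the C arrays and 2.19, 2.22, 2.26, 2.21 and 2.07 in the T arrays, a difference of -0.076 ± 0.086. The groups of all 3 probes overlapped. Eif4a3, whose helicase sits in the exon junction complex, differed by 0.0052 ± 0.059. Eif4b and Eif4h stimulate the helicase, and the probes of Eif4b had opposite signs (0.018 and -0.0054), while Eif4h differed by -0.046 ± 0.067.

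The scaffold gene Eif4g2 gave the widest disagreement between probes. Its product, also called DAP5, resembles eIF4G but lacks the part that binds eIF4E, and serves starts that do not depend on the cap-binding protein. The brightest probe, A_64_P025599, read 5.32, 5.26, 5.23, 5.15 and 5.17 in the C arrays and 5.21, 5.26, 5.13, 4.99 and 5.00 in the T arrays, a difference of -0.11 ± 0.071. The second, A_64_P025593, read 2.47, 2.52, 2.65, 2.54 and 2.50 in the C arrays and 2.58, 2.65, 2.60, 2.62 and 2.80 in the T arrays, a difference of 0.11 ± 0.062. The third, A_64_P115741, read -0.39, -0.71, -0.59, -0.89 and -0.79 in the C arrays and -0.82, -0.72, -0.90, -0.79 and -0.95 in the T arrays, a difference of -0.16 ± 0.094. This last value rested in part on single arrays: it was -0.089 without C replicate 1 and -0.21 without C replicate 4. The groups overlapped on each probe, and the array gives the same transcript for all 3.

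A ratio of probes on the same array does not change when a whole array is scaled by 1 factor. It can still differ between slides. With the group as a covariate, slide 2 minus slide 1 was -0.15 on A_64_P025599, 0.013 on A_64_P025593 and -0.19 on A_64_P115741. With the slide as a block, T minus C was -0.079, 0.11 and -0.12 in that order. The groups were split unevenly over the slides. The permutations below ignored the slide, so its part in the ratios was not tested. The first minus the second Eif4g2 probe was 2.69 ± 0.11 in C and 2.47 ± 0.18 in T (SD, n = 5), a difference of -0.22 (two-sided exact permutation p = 0.0397). The second minus the third was 3.21 ± 0.21 in C and 3.48 ± 0.15 in T, a difference of 0.27 (exact permutation p = 0.0317). C replicate 1 had the lowest of these ratios, 2.87 against 3.23 to 3.43 in the other C arrays. Without it the difference was 0.19 (exact permutation p = 0.0714), and for the first minus the second probe it was -0.18 (exact permutation p = 0.103). Leaving out each array in turn gave exact permutation p-values of 0.0159 to 0.103 for the first minus the second probe and of 0.00794 to 0.0714 for the second minus the third. The first minus the third differed by 0.049 (exact permutation p = 0.54). Over the 13 pairs that the 11 genes with several probes allow, the exact permutation p of both larger differences, adjusted by Benjamini and Hochberg, was 0.258. With 5 arrays a group, the smallest exact permutation p is 0.00794, which for a single pair becomes 0.103 after adjustment, so that one pair alone could not pass. Of these 11 genes, 6 had probes of opposite sign and 5 had probes of the same sign; which isoforms the probes report was not tested, since probe sequences were not used here. Eif4g3, another scaffold, differed by -0.0073 ± 0.082, and Eif4g1 was not analysed here.

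Past the start site, Eif5a, the factor with the modified lysine hypusine that helps the ribosome through difficult peptide bonds, read 4.00, 3.77, 3.63, 3.67 and 3.70 in the C arrays and 3.79, 3.73, 3.70, 3.67 and 3.69 in the T arrays, a difference of -0.037 ± 0.075. C replicate 1 was its highest array. Eif5a2, its relative, read -2.50, -2.48, -2.74, -1.96 and -2.27 in the C arrays and -2.43, -2.38, -2.34, -2.53 and -1.97 in the T arrays, and with 0.060 ± 0.15 it had the widest interval of the set. Its arrays spread over 0.77 on the log2 scale, C replicate 4 and T replicate 5 being the highest. Eif6, which keeps the large subunit from joining early, read 3.1, 3.02, 3.03, 3.17 and 2.97 in the C arrays and 3.14, 2.98, 3.03, 3.03 and 2.87 in the T arrays, a difference of -0.052 ± 0.066. The groups overlapped on all 3 probes, and 1 of these 3 probes was higher and 2 lower in T.

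**Figure D3:**
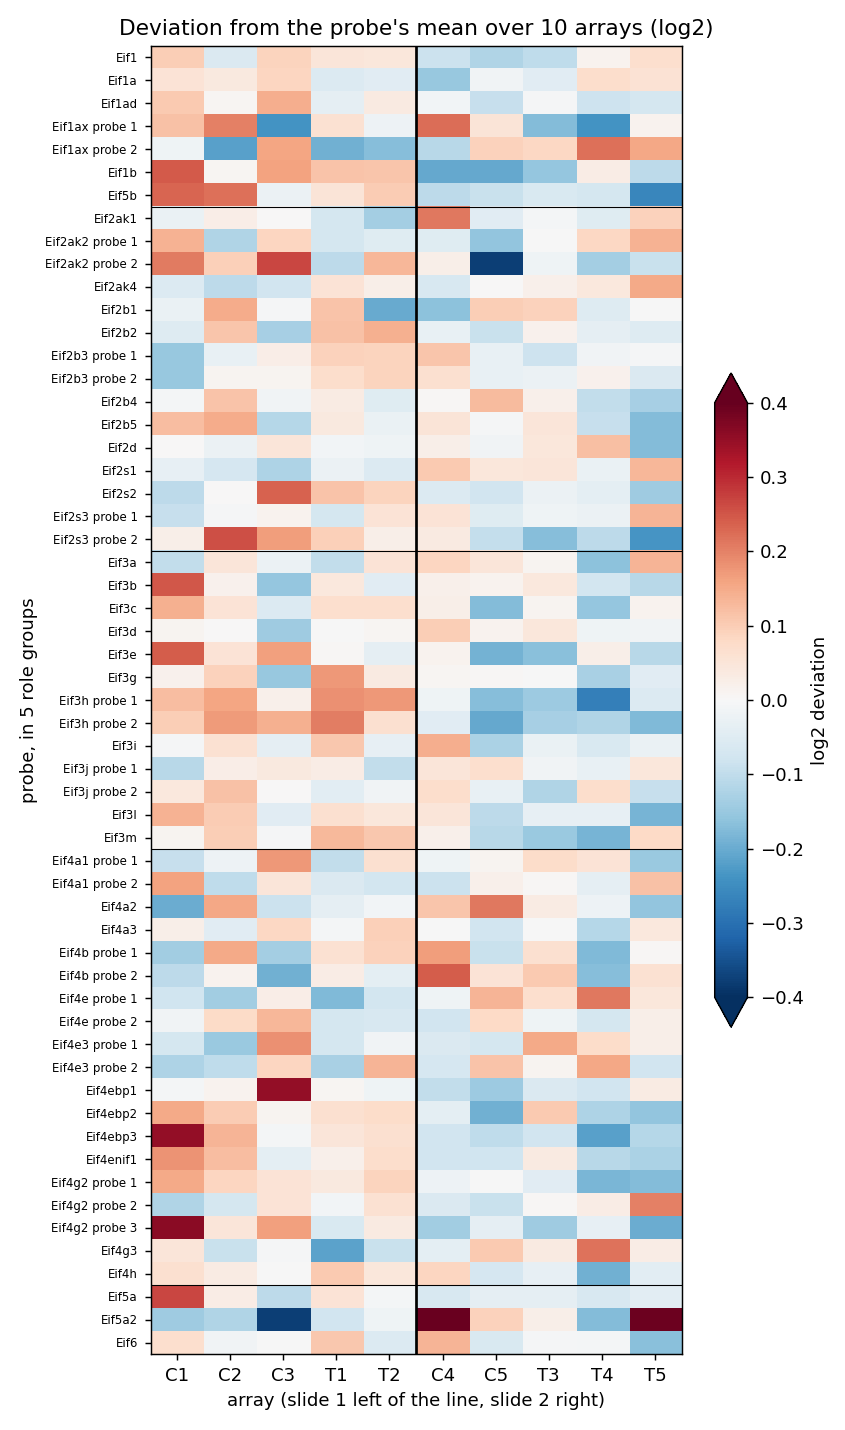
Deviation of each of the 57 probes (rows, in 5 role groups) from its mean over the 10 arrays, in log2 units by colour, with slide 1 arrays left of the vertical line and slide 2 arrays right of it. The colour scale ends at 0.4, just beyond C replicate 4 and T replicate 5 of Eif5a2; the rows of Eif3h are red on slide 1 and blue on slide 2, and no block of rows follows C and T.

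Some of these factors differed more between slides than between groups. With the group as a covariate, 3 of 57 probes (5.26%) differed between slides at an adjusted p under 0.05, against 9.79% of all tested probes. Both probes of Eif3h, an eIF3 subunit, were lower on slide 2, with a slide 2 minus slide 1 difference of -0.27 ± 0.067 on A_64_P072407 (limma adjusted p = 0.0335) and -0.27 ± 0.056 on A_44_P237915 (limma adjusted p = 0.0132). The brighter Eif3h probe read 4.15, 4.18, 4.05, 4.01 and 3.85 in the C arrays and 4.21, 4.20, 3.88, 3.75 and 3.97 in the T arrays, and the dimmer one read 0.062, 0.13, 0.10, -0.083 and -0.24 in the C arrays and 0.17, 0.028, -0.17, -0.16 and -0.21 in the T arrays. On each Eif3h probe, all 5 arrays of slide 1 lay above all 5 of slide 2, and the difference between T and C was -0.047 ± 0.10 and -0.064 ± 0.098. The share of all tested probes whose slides do not overlap was not counted, so this is not a trait shown to be particular to Eif3h. Eif1b was also lower on slide 2, with a difference of -0.27 ± 0.068 (limma adjusted p = 0.0356), with overlap of the slides. The largest difference between T and C among the 57 probes was smaller than each of these 3. The direction was the same for all 3 probes under quantile scaling, where 3 of the 57 probes passed (11.2% of all probes), and under median scaling, where 2 did (10.2% of all); the median of all probes shifted between slides by -0.028, or by 0.032 and 0.003 with those scalings. What else differed between slides, such as the day of labelling or the litters they hold, cannot be told apart from the slide.

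**Figure D4:**
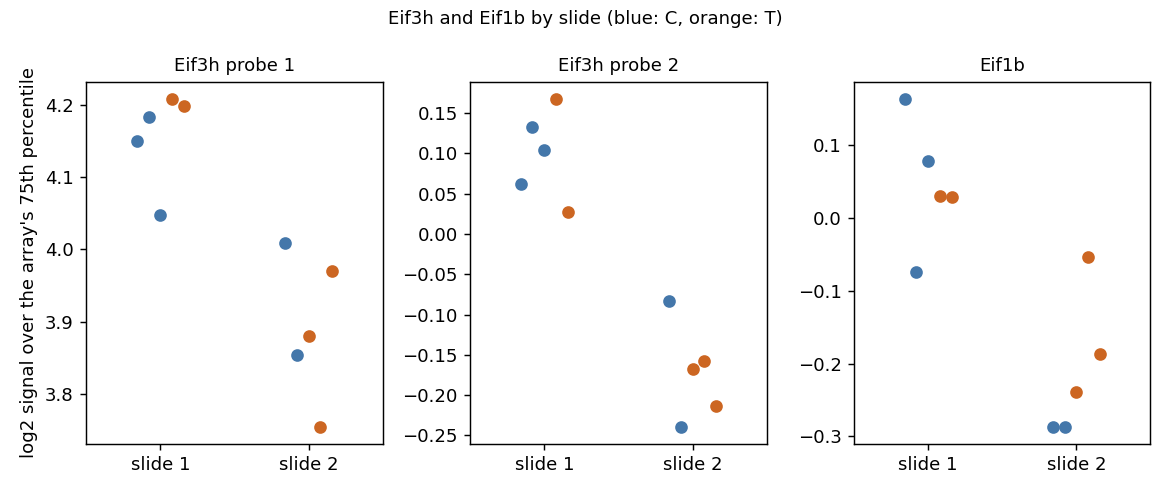
Log2 signal over the array's 75th percentile (vertical axes, which do not start at 0) of both Eif3h probes and Eif1b by slide, with 1 point per array, blue for C and orange for T. Slide 1 lies above slide 2 without overlap for both Eif3h probes, and the colours mix within each slide.

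Counted over the 57 probes, C replicate 1 was the highest array on 14 and T replicate 5 the lowest on 11, while T replicate 3 was the highest on 0 and the lowest on 1. The median deviation of an array from the probe means followed the slides: it was above 0 on all 5 arrays of slide 1 (0.010 to 0.029) and below 0 on all 5 of slide 2 (-0.048 to -0.00079). Over all tested probes the same median was -0.041 to 0.090 on slide 1 and -0.048 to 0.022 on slide 2. The members and all probes were close on T replicate 4 (-0.048 for both) and apart on C replicate 1 (0.016 against 0.090) and C replicate 3 (0.010 against -0.041).

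No probe of the lists for neighbouring steps of translation passed (0 at an adjusted p under 0.05). Of 11 probes of 9 elongation genes 1 was higher and 10 lower in T, with a median of -0.043 and a range of -0.13 to 0.0059, where 41.5% of all tested probes were higher; 0 of these 11 stood at an unadjusted p under 0.05. Of 4 probes for termination and recycling 2 were higher and 2 lower. Of 26 probes of 20 regulators of the cap, the tail and the start 11 were higher and 15 lower, with a median of -0.0056. A single one of the 26, a probe of Ncbp2, which encodes a nuclear cap-binding subunit, stood at an unadjusted p under 0.05, a share close to the 3.97% of all tested probes. Its groups were just apart, with 0.49 to 0.62 in C and 0.32 to 0.49 in T and a difference of -0.18 ± 0.058 (0.53% of all probes were lower in T without overlap), while the other Ncbp2 probe differed by -0.045 ± 0.087. Gcn1, the partner that activates GCN2, differed by 0.0040 on its brighter probe (3.90 to 4.18 in C). On its much dimmer probe (-5.72 to -5.16 in C) it differed by -0.14 ± 0.11. Impact, which inhibits that activation, differed by 0.17 ± 0.13.

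Genes that Atf4 drives when eIF2 is phosphorylated gave no common direction beside Eif2ak4. Of 20 probes of 19 such genes 8 were higher and 12 lower in T, against 41.5% higher of all tested probes, with a median of -0.051. Atf4 itself differed by 0.14 ± 0.090 and Asns, the asparagine synthetase, by -0.069 ± 0.088. At an unadjusted p under 0.05 stood 2 of the 20, against 3.97% of all tested probes: Nupr1, a stress-induced nuclear protein (0.51 ± 0.15), and Slc7a11, the cystine transporter (-0.41 ± 0.15), and they went opposite ways. The Slc7a11 probe was dim, at -5.51 to -4.75 in C. The array reads RNA, so the phosphorylation of eIF2 was not measured.

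Markers of the cell types in and around the testis were read on the same arrays, and 0 of their probes passed. Over all tested probes 41.5% were higher in T, and 3.97% stood at an unadjusted p under 0.05 (1.59% higher in T). Of 9 germ cell probes 8 were higher in T, 3 of them at an unadjusted p under 0.05 (Mael, Piwil2 and the dimmer Dazl probe). The brighter Dazl probe differed by 0.15 ± 0.077 and was not among the 3. Mean levels of the lists use the brightest probe of each gene and leave out the dimmer Dazl and Hba-a1 probes. The mean level of the germ cell list ran from -1.59 to -1.41 in the C arrays and from -1.53 to -1.18 in the T arrays. All 10 erythroid probes were higher in T, with mean levels of 1.96 to 2.86 in C and 2.60 to 2.97 in T, and all 5 probes of peritubular myoid cells were lower, with 1.34 to 1.76 in C and 1.21 to 1.45 in T. Of 8 Sertoli probes 2 were higher (2.29 to 2.50 in C, 2.16 to 2.44 in T), of 5 Leydig probes 4 (1.44 to 2.04 in C, 1.49 to 2.01 in T) and of 3 endothelial probes 2 (-0.89 to -0.43 in C, -0.73 to -0.46 in T). Of 6 skeletal muscle probes 4 were higher (-4.85 to -4.46 in C, -4.81 to -4.26 in T) and of 6 macrophage probes 3 (-3.53 to -3.18 in C, -3.44 to -3.24 in T). Beyond the germ cell list, 1 probe each of the erythroid (Hba-a1, 0.42 ± 0.15), endothelial (Pecam1, 0.21 ± 0.082) and muscle lists (Actn2, 0.33 ± 0.10) stood at an unadjusted p under 0.05. All were higher in T, and 0 of the Sertoli, Leydig, myoid and macrophage lists stood there. The groups of Pecam1 were just apart (up to -0.56 in C, from -0.53 in T), and 0.192% of all probes were higher in T without overlap. The endothelial probe of Cdh5 differed by -0.21 ± 0.15, and the brighter Hba-a1 probe by 0.15 ± 0.14. The part of these cell types in the values of Eif2ak4 or any other initiation factor was not tested, and in whole testis fewer cells of a type and less RNA per cell cannot be told apart.

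Some short motifs were found in a larger share of the set's promoters than of all promoters, and others in a smaller share. The members were not chosen by promoter sequence, although some of the motifs were chosen after these promoters had been seen. RefSeq (assembly GRCr8) gave 42 promoters for 40 of the 45 genes, each with 250 bases before and 50 after the annotated start; Eif3e, Eif3h, Eif4b, Eif4e3 and Eif4ebp1 are named only. Of 11 motifs searched on both strands, the ETS site CCGGAAG was found in 17 of 42 promoters (40.5%), against 8.75% of all 33469. The GC box GGGCGG was found in 29 (69%, against 33.1%) and the E-box CACGTG in 7 (16.7%, against 6.42%). The TATA box TATAAA was found in 2 (4.76%, against 14.2%) and CCAAT in 12 (28.6%, against 37.5%). The short motif TGACGT was found in 6 (14.3%, against 7.94%), ATGGCG in 7 (16.7%, against 9.98%), GCGCATGCG in 2 (4.76%, against 1.52%) and the amino acid response motif TGATGNAA in 2 (4.76%, against 3.98%). TGACGTCA, which holds TGACGT, and the extended YY1 motif, which holds ATGGCG, were found in 0, against 1.83% and 0.675%. Among the 21851 promoters of protein-coding genes alone, the ETS site was found in 2346, and the shares were 41.8% for the GC box, 7.02% for the E-box, 13% for the TATA box, 38% for CCAAT, 8.78% for TGACGT, 11.7% for ATGGCG, 1.93% for GCGCATGCG, 3.35% for TGATGNAA, 2.1% for TGACGTCA and 0.966% for the extended YY1 motif. The ETS and GC motifs were added after the promoters of the set had been looked at. Related genes such as Eif1a and Eif1ax can share promoter sequence, and a match is a run of letters, not a shown binding site.

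The promoters printed here, 5′ to 3′ on the gene's strand, belong to the genes the values above turn on and to those with the most marked motifs; capitals mark a GC box in Eif2ak4, a CCAAT box in Eif4g2, an E-box in Eif4e, 3 ETS sites in Eif3i and a run of pyrimidines from the start base in Eif2s3, each in the direction it lies.
Eif2ak4, chr3:125810107-125810226, plus strand: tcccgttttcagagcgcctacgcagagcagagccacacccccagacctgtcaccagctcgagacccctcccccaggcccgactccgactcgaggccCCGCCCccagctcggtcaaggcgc
Eif4g2, chr1:174628233-174628352, minus strand: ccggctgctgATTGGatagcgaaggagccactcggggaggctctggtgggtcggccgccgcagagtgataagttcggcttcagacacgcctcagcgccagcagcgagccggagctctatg
Eif4e, chr2:229740603-229740762, plus strand: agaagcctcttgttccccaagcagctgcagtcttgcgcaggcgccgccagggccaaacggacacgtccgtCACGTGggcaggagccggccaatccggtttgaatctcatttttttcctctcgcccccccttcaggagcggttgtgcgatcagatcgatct
Eif3i, chr5:147226891-147226970, minus strand: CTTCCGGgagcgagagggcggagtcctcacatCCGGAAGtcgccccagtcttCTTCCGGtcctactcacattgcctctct
Eif2s3, chrX:62933680-62933759, minus strand: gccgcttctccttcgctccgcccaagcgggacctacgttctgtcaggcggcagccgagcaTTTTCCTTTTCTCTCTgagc
The window of Eif2ak4 ends 20 bases after the start and holds none of the TGATGNAA, CACGTG or CCGGAAG letters. Eif3i carries its 3 ETS sites at -60, -28 and -8 bases from the start, on alternating strands. Eif2s3 begins with 16 pyrimidines in a row, the longest run of the set, and the next longest among its 42 promoters was 4. That length, taken from the set itself, is reached by 0.155% of all promoters (52 of 33469). Runs could not be read for Eif3e, Eif3h, Eif4b, Eif4e3 and Eif4ebp1, which had no promoter here. Runs of pyrimidines at the first base, usually opened by a C, mark messages whose translation follows mTOR, such as those of ribosomal proteins and elongation factors. The run of Eif2s3 opens with a T at an annotated start, and whether Eif2s3 belongs to that class was not tested. Translation itself was not measured.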

How the data were processed

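Members and gene lists were chosen with earlier results of these data known. RNA was column-purified and treated with DNase, and Cy3-labelled cRNA was made from 100 ng, per the labels' protocols. The deposited scanner files hold intensity values from Agilent Feature Extraction 10.7.3.1 per the file headers (10.7 in the submitters' processing notes), corrected for background by that software. The authors' value table holds log2 values: against scanner values centred per probe it correlated at 0.9978 to 0.9987 with slopes near 1 over 21171 probes, so it is log2, centred per probe and higher for more signal, and its scaling between arrays is unknown. Its column medians were 0.0288, 1e-04, -0.0166, 0.0202 and -0.0089 in C and 0.0032, 0.0037, -0.0026, -0.0169 and -0.0023 in T; it served as an alternative.

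Of 62976 spots, 4259 controls were left out. Processed signals were taken to log2, and the array's 75th percentile over the other 58717 spots was subtracted. Outlier spots (494 to 745 per array) were set missing, 0 were saturated, and spots of a probe were averaged. A probe was kept if well above background on at least 5 of 10 arrays. A RefSeq gene table (GRCr8), searched by unversioned transcript, named 17998 probes; 12369 had no symbol. The array's build, rn4 per the headers of 5 arrays, gave no coordinates here. T minus C was fitted without covariates, two-sided, with lmFit and eBayes of limma 3.58.1 (R 4.3.3); p-values were adjusted by Benjamini and Hochberg over all probes, with a threshold of 0.05, and the fit was tested on simulated data. Sire code numbers are shared by C and T, and no label says whether they pair the arrays. Deviations of the 3 pairs correlated at -0.51 for the pair on different slides and at 0.28 and 0.19 for those on the same slide. So few pairs, mixed with slide, cannot decide it, and the main fit did not pair the arrays. Values per array are given for the 12 members with the smallest p, those without overlap or with 1 distant array, a panel of 15 genes and, added after values were seen, members that differ by slide.

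Alternatives were the background correction (normexp with an offset of 50 on the median spot signal, since a mean was not in the columns used), scaling, filters, flagged spots, the variance model, array weights, slide, code numbers, leaving out each array and the authors' values. The fit by slide and the ratios of probes, also without each array, were added after the data were seen.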

Additional observations from a re-analysis of the deposited data

Results flagged for a closer look

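In a group of 5 arrays, an array stands out where its gap to the nearest other array exceeds 0.71 of the group's range (Dixon's critical value at 95%). This held for 6 of the 114 groups formed by 57 probes, where chance gives about 5.7. T replicate 5 was far above the other T arrays for Eif2ak4 (gap over range 0.743), and without it the difference between T and C was 0.094 in place of 0.12. T replicate 4 was far below the other T arrays for Eif3c (0.75), and T replicate 1 far above them for Eif3i (0.78). C replicate 3 was far above the other C arrays for the brighter Eif4e3 probe (0.726), C replicate 4 for Eif2ak1 (0.723), and C replicate 1 was far below them for the brighter Eif3j probe (0.779). The 6 values fell on 6 different arrays.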

How the results depend on the processing

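Under all 24 alternatives, 0 of all probes and 0 initiation factor probes passed the threshold; the smallest adjusted p of a member was 0.848 (limma, without T replicate 1). The count of members at an unadjusted p under 0.05 was 1 and became 0 with normexp, with median scaling, with no filter, with the slide as a block, on slide 1 or slide 2 alone, with the replicate block and with the second code number as a term, and 2 with array weights; leaving out single arrays gave 0 to 4: 0 without C replicate 1 or 2 or T replicate 2, 3, 4 or 5, 2 without C replicate 3 and 4 of 57 without C replicate 5. The share of all probes was 3.97% and ranged from 2.21% with normexp to 4.64% with the slide as a block (4.62% with array weights), and from 2.96% to 5.26% without single arrays (4.84% without C replicate 3, 4.54% without C replicate 5). The count of probes without overlap was 1 and became 0 with normexp, median scaling and the authors' table, 14 and 12 of 57 on slides 1 and 2 alone and 3 with the replicate block, where so few arrays overlap less often by construction; the shares of all probes were 0.457%, 0.754%, 0.821%, 18.3%, 18.7% and 7.45% in that order. Leaving out single arrays, which cannot make such groups overlap, gave 1 to 2, the 2 without C replicate 3 (1.12% to 1.76% of all probes). The median difference of the members stayed between -0.033 and -0.0010 except for 0.011 with the replicate block, where 31 members were higher and 26 lower. That block uses the 6 arrays whose code number occurs in both groups, and whether these numbers pair the arrays is not known.

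Of 648 values for the 27 named probes, 44 in 15 probes changed sign, and none of these probes was called in any setting; the cause was not tested. With the replicate block this happened to Eif2s1 (-0.037), Eif4a1 (0.022 and 0.012), the brighter Eif4e probe (-0.054), Eif4ebp1 (0.055), Eif4ebp3 (0.026), the brightest Eif4g2 probe (0.0055), Eif5a (0.028) and Eif5a2 (-0.15). On slide 1 alone it happened to Eif3i (0.030), Eif4a2 (0.021), Eif4e (-0.060), Eif4e3 (-0.032) and Eif6 (0.0083), and on slide 2 alone to Eif2s1 (-0.023), Eif3e (0.0018), the dimmer Eif4a1 probe (0.060), Eif4ebp1 (0.087), Eif5a (0.0042) and Eif5a2 (-0.16). With the slide as a block Eif4e gave -0.0059, and with the second code number Eif3i gave 0.0051 and Eif4e -0.0080. Normexp turned Eif3c (-0.023) and both Eif4a1 probes (0.017 and 0.0004), quantile normalization turned Eif3i (0.032) and the dimmer Eif4a1 probe (0.0021), and array weights turned that probe too (0.013). Leaving out single arrays gave ranges of -0.040 to 0.042 for Eif3c, -0.049 to 0.019 for Eif3i, -0.048 to 0.018 and -0.050 to 0.020 for Eif4a1, -0.020 to 0.077 for Eif4e, -0.087 to 0.037 for Eif4ebp1, -0.068 to 0.025 for Eif5a and -0.030 to 0.17 for Eif5a2. The 3 probes of Eif4g2 kept their signs under every scaling, with slide as a block and on each slide. Differences under about 1.1-fold are beyond the precision of 5 arrays a group.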
